A study of Anopheles gambiae with 15 samples.

Results

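Posterior midgut RNA from Anopheles gambiae larvae, the young of a malaria mosquito, was compared with whole-larva RNA at the same 4th instar, on 3 arrays per group out of 15 arrays in the series. The members of this comparison were chosen by sample title, and 16884 of the 22761 probe sets on the array were tested, namely those whose ID starts with Ag. A probe set is a group of short probes that together read 1 transcript or several alike transcripts. Both groups were larvae of the G3 laboratory strain with no treatment, kept in distilled water at 28 °C and fed baker's yeast with ground Tetramin flakes. Each posterior midgut array holds RNA pooled from 1000 guts dissected in 70% ethanol, and each whole-larva array holds RNA pooled from 200 individuals. The labels call the 3 arrays of a group biological repeats. The other 9 arrays, 3 each of gastric caeca, anterior midgut, and hindgut with the excretory Malpighian tubules, entered the same fit.

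The larval mosquito midgut digests and absorbs food along a tube whose regions differ in their contents. The gastric caeca and anterior midgut lie at the front, where the contents of the anterior midgut are strongly alkaline. The posterior midgut follows, secretes digestive enzymes and takes up their products, and ends where the Malpighian tubules join the gut. Whole larvae contain the gut as well as cuticle, muscle, fat body and nervous tissue, so each value of a section is set against a mixture that includes that section. In such bulk samples, fewer cells of a type and less RNA per cell cannot be told apart.

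Values are log2 expression levels, with 1 value for a probe set on each array, so that a difference of 1 is 2-fold. No gene name stands in the values table, and 0 of the 16884 IDs matched any of the 15165 genes of the RefSeq table for assembly idAnoGambNW_F1_1. Probe sets therefore appear under their IDs, at most 2 that rose and 2 that fell, and the labelled tissue could not be checked against marker genes. No probe or transcript sequence is shown for the same reason. The ID fields (an arm name or UNKN, then CDS, UTR or neither) are used as they are written, since no source used here defines them.

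Across probe sets, the correlation among the 3 posterior midgut arrays was r = 0.977 to 0.982, and with whole-larva arrays 0.829 to 0.890. Among whole-larva arrays it was 0.927 to 0.947. Probe sets are not independent replicates, so these r values only describe the arrays. Whole-larva array 1 was the least like the posterior midgut (r = 0.829 to 0.833) and array 3 the most (0.872 to 0.890). Replicate spread, as the root mean square of the SD of each probe set, was 0.252 in posterior midgut and 0.442 in whole larvae. Anterior midgut array 2 stood apart, at r = 0.871 and 0.919 with the other arrays of its section and 0.815 to 0.844 with posterior midgut. It enters the estimate of spread, and without it 687 probe sets were higher and 910 lower than in whole larvae by limma, against the 628 and 873 given next. RNA quality, read as the level at the 3' end minus that at the 5' end of the actin and Gapdh controls, was 0.96 ± 0.26 (SD, n = 3) in posterior midgut and 0.93 ± 0.15 in whole larvae, with ranges that overlapped. It was 0.08 ± 0.26 in hindgut, outside the posterior midgut range, and its part in the differences from hindgut was not tested.

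Of the tested probe sets, 628 (3.72%) rose in posterior midgut relative to whole larvae and 873 (5.17%) fell. The call required at least a 2-fold difference and an adjusted p under 0.05 in limma, a moderated linear model fitted to all probe sets and all 15 arrays, with Benjamini-Hochberg adjustment. The middle 50% of the higher probe sets rose by 2.56- to 4.51-fold, and the middle 50% of the lower ones differed by 2.61- to 8.88-fold. At 4-fold or more there were 221 higher (1.31% of all) and 452 lower (2.68%). The lower side had the longer tail, with 197 probe sets (1.17% of all) past 10-fold against 19 (0.113%) on the higher side. That count of 19 was 9 without whole-larva array 1, 12 without posterior midgut array 2 and 35 without whole-larva array 3. A further 615 probe sets had an adjusted p under 0.05 with a difference under 2-fold, and 341 differed 2-fold or more without passing the adjusted p.

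**Figure D1:**
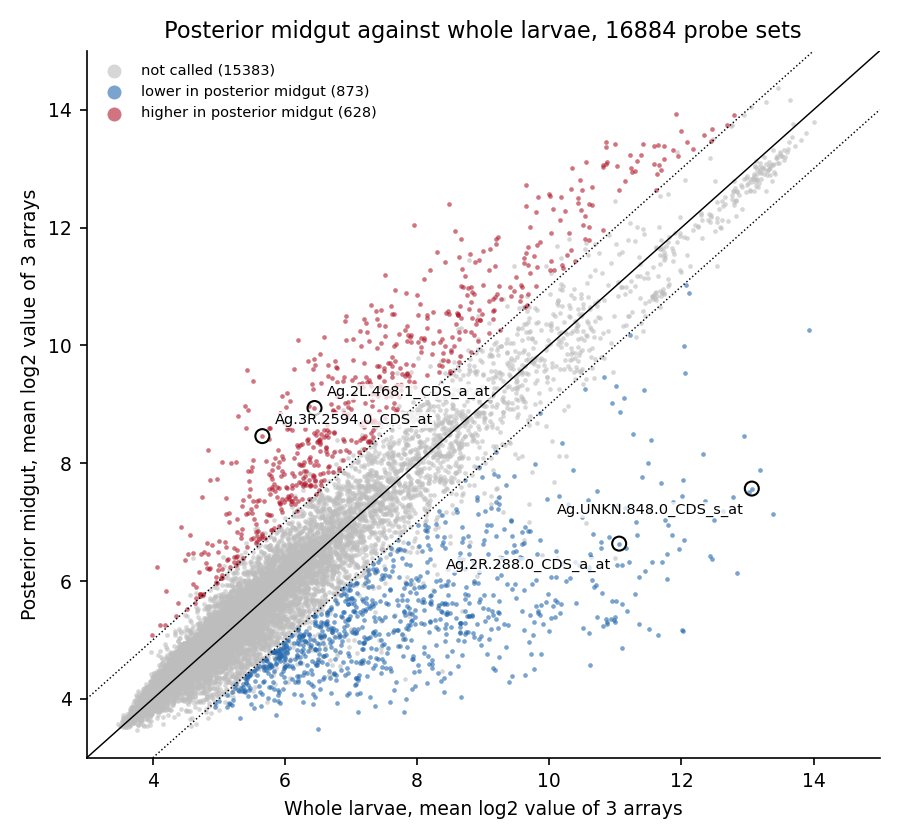
Mean log2 value of 3 posterior midgut arrays against that of 3 whole-larva arrays for 16884 probe sets, with the line of equal levels and dotted lines at 2-fold, colours for the 628 higher and 873 lower calls, and circles on the 4 named probe sets. Lower calls reach down to the dim end of the posterior midgut axis, whereas higher calls spread over most of the range of levels.

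The study's own rule, the methods' t-test at 2-fold and p under 0.05, was also applied. The methods' t-test gave 647 higher (3.83%) and 757 lower (4.48%) probe sets without adjustment. Of these, 593 and 720 were also called by the limma fit of all 15 arrays. After Benjamini-Hochberg adjustment the methods' t-test gave 71 higher (0.421%) and 178 lower (1.05%) ones, and each of these was among the limma calls. Whole-larva and posterior midgut arrays alone in the limma fit gave 526 higher (3.12%) and 614 lower (3.64%) calls, of which 500 and 598 were shared with the fit of all 15 arrays.

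The 4 probe sets shown in full had the smallest adjusted p in each direction among those changed at least 4-fold and above background in both groups, so their sizes are measured on both sides. They were selected for their change, and 208 higher and 191 lower probe sets met the same conditions. Background here means the 95th percentile of the 290 probe sets whose ID starts with a number, which stood at 5.56 in posterior midgut and 5.29 in whole larvae.

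Ag.2L.468.1_CDS_a_at read 8.82, 9.26 and 8.73 on the posterior midgut arrays. On the whole-larva arrays it read 6.41, 6.48 and 6.45. The groups did not overlap, and the lowest posterior midgut array lay well above the highest whole-larva array. The difference was 2.49 ± 0.16 (limma's SE) on the log2 scale, 5.62-fold (adjusted p = 3.5e-07 by limma). Its level in hindgut was 8.72 ± 0.25 (SD, n = 3), and the difference of 0.21 ± 0.16 from posterior midgut did not pass the test (adjusted p = 0.37 by limma). Caeca stood at 7.81 ± 0.07 and anterior midgut at 5.63 ± 0.18, both below posterior midgut (adjusted p = 0.00086 and 2.4e-07 by limma). The anterior midgut level was below that section's background of 5.83, so posterior midgut was at least 8.63-fold higher, measured against the background. A second probe set with the same arm and number but another version in its ID was also higher than in whole larvae, by 2.50 ± 0.23, at a brighter level of 10.51 in posterior midgut.

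Ag.3R.2594.0_CDS_at read 8.36, 8.51 and 8.51 in posterior midgut. In whole larvae it read 5.89, 5.31 and 5.77. The lowest of these was close to that group's background of 5.29, so the fold is less well measured on that side. Again all posterior midgut arrays lay above all whole-larva arrays, by 2.80 ± 0.20 on the log2 scale or 6.97-fold (adjusted p = 1e-06 by limma). Caeca, at 4.78 ± 0.22 (SD, n = 3), and anterior midgut, at 5.18 ± 0.15, were below the backgrounds of those sections. Against those backgrounds posterior midgut was at least 8.59-fold above caeca and at least 6.20-fold above anterior midgut. Hindgut read 7.87 ± 0.39, and its difference of 0.59 ± 0.20 from posterior midgut was under 2-fold (adjusted p = 0.0497 by limma). High levels of this probe set were thus measured in the rear sections, and low ones in the front sections and in whole larvae.

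Ag.UNKN.848.0_CDS_s_at read 7.66, 7.49 and 7.56 in posterior midgut. In whole larvae it read 12.97, 13.28 and 12.94. It fell by 5.49 ± 0.22 on the log2 scale, a 45.1-fold lower level (adjusted p = 7.9e-09 by limma). The other sections had means of 8.34 to 8.62. Posterior midgut was lowest, below caeca by 1.01 ± 0.22 and hindgut by 1.05 ± 0.22 (adjusted p = 0.020 and 0.0038 by limma), while the 0.77 ± 0.22 below anterior midgut did not pass (adjusted p = 0.076). The suffix _s_at is the array maker's mark for probes that can be shared by several transcripts. A companion with the same ID stem but without that suffix stood at 5.06 in posterior midgut and 5.03 in whole larvae, below background in both, and did not pass the test.

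Ag.2R.288.0_CDS_a_at read 6.52, 6.55 and 6.84 in posterior midgut. In whole larvae it read 11.44, 11.01 and 10.73, with no overlap. It fell by 4.42 ± 0.18 on the log2 scale, 21.4-fold (adjusted p = 7.9e-09 by limma). Hindgut, at 10.66 ± 0.19 (SD, n = 3), was 16.2-fold above posterior midgut (adjusted p = 3.2e-08 by limma). Anterior midgut, at 6.87 ± 0.13, did not pass the test against posterior midgut (adjusted p = 0.47). Caeca, at 7.55 ± 0.15, were above posterior midgut by less than 2-fold (adjusted p = 0.0097 by limma). Its partner with UTR in the ID fell by 4.49 ± 0.41, from 12.94 to 8.46.

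**Figure D2:**
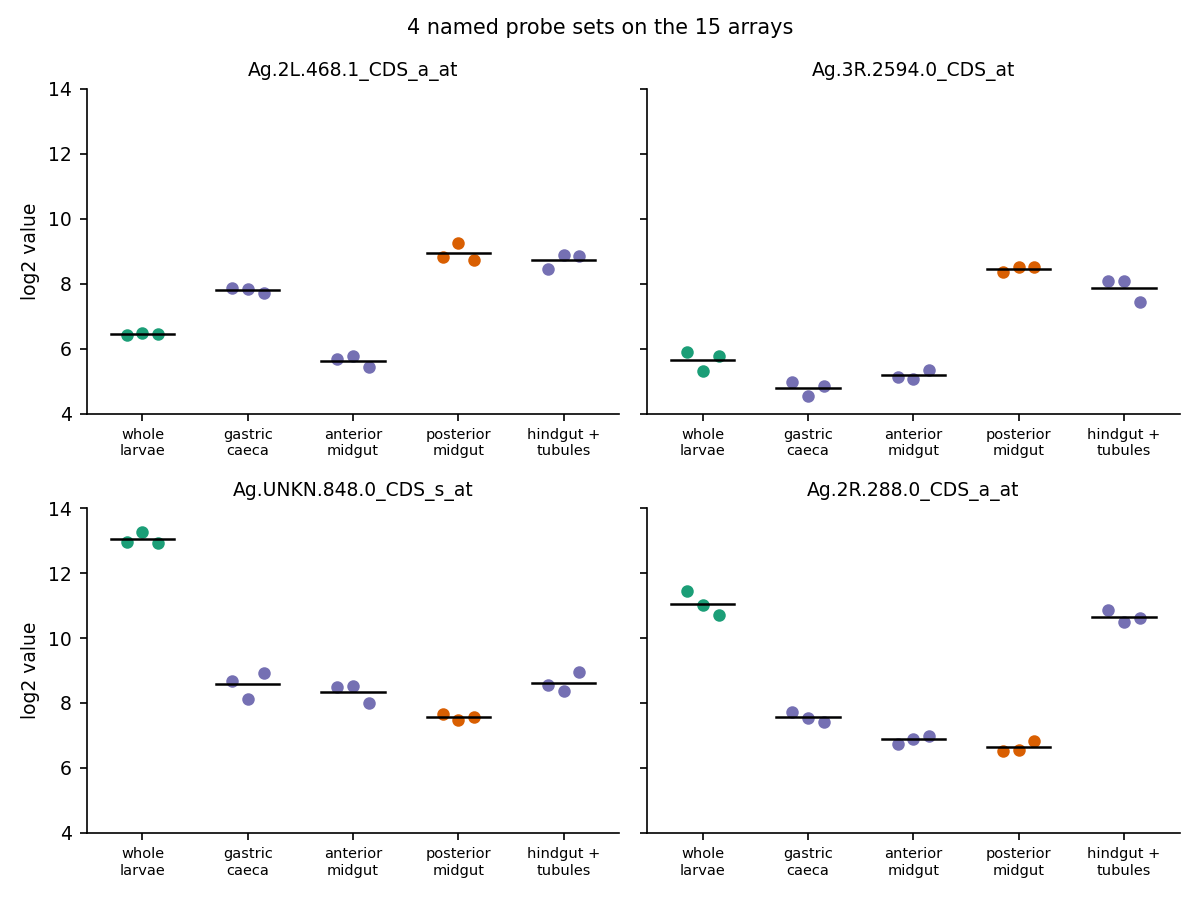
Log2 values of the 4 named probe sets on each of the 15 arrays (points) with the mean of each group (bars). Both higher probe sets are bright in posterior midgut and hindgut. Of the lower ones, Ag.UNKN.848.0_CDS_s_at has section means of 7.57 to 8.62 and Ag.2R.288.0_CDS_a_at of 6.64 to 7.55, apart from 10.66 in hindgut.

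How far the calls are measured on both sides differed between the directions. Of the 628 higher probe sets, 560 were above background in both groups, 63 in posterior midgut only and 5 in neither. Of the 873 lower ones, 326 were above background in both groups, 534 in whole larvae only and 13 in neither. Setting each posterior midgut level below 5.56 to that level changed the median of the lower probe sets from 4.20-fold to 3.13-fold, which is a bound. The same step on the higher side changed the median from 3.32-fold to 3.29-fold. By the lower background of the probe sets whose ID starts with Pf, 843 of the 873 were above background in both groups. Of all 16884 tested, 15786 were, so the count depends on which IDs set the floor.

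The 534 lower probe sets that were above background in whole larvae and not in posterior midgut had a median whole-larva level of 6.86. Of these, 304 were above background in hindgut, 239 in caeca and 34 in anterior midgut, each against its own group's level, and 175 were above it in no section. The background was highest in anterior midgut, at 5.83, against 5.36 in caeca and 5.31 in hindgut, so the sections were not counted at 1 level. The same split was not counted over all tested probe sets, so these numbers only describe the 534.

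The share of calls was also counted by brightness, taken as the mean over the 15 arrays. Because 12 of these arrays hold gut sections, a probe set that is high or low in gut moves towards a bright or dim band by its own difference, so the split is a description. Of the 314 probe sets with a mean of 10 to 12, 87 were higher (27.7%) and 11 lower (3.5%). Of the 990 with a mean of 8 to 10, 208 were higher (21%) and 82 lower (8.28%). From 6 to 8 the order turned, with 255 higher (8%) and 390 lower (12.2%) among 3188, and below 5 only 6 were higher and 107 lower among 7584. The 158 brightest probe sets, with means of 12 and over, gave 22 higher and 0 lower calls in limma. Of those 158, 115 nevertheless had a negative difference, with a median of -0.22, against -0.21 after another quantile normalization and -0.19 after median centring.

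**Figure D3:**
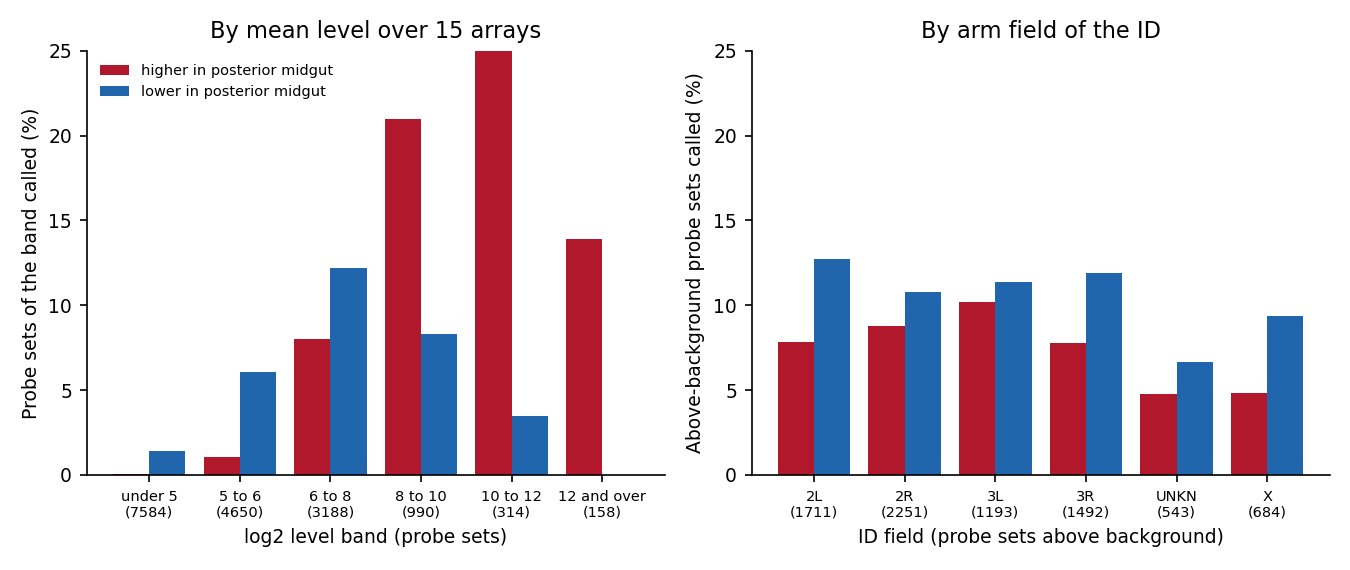
Share of probe sets called higher and lower in posterior midgut than in whole larvae (bars, in percent), by band of mean log2 level over 15 arrays and, among probe sets above background in at least 1 of both groups, by the arm field of the ID. The share higher is 27.7% in the band of 10 to 12, where the axis ends lower and cuts off the bar. On the right it is lowest among UNKN and X probe sets.

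By the arm field of the ID, 134 higher and 218 lower probe sets were on 2L, 197 and 242 on 2R, 122 and 136 on 3L, and 116 and 177 on 3R. X held 33 higher and 64 lower ones, and UNKN held 26 and 36. Among probe sets above background in at least 1 of the compared groups, 7.77% to 10.2% were higher on the 4 autosomal arms, against 4.82% on X and 4.79% for UNKN. Lower calls were 10.8% to 12.7% on the autosomal arms, 9.36% on X and 6.63% for UNKN. Without that condition, 48.8% of X probe sets and 28% of UNKN probe sets were above background, against 46.9% to 50.7% on the autosomal arms. These shares are a description, with no test.

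By the CDS and UTR field, 548 of 14060 CDS probe sets were higher (3.9%) and 632 lower (4.5%), whereas 21 of 790 UTR probe sets were higher (2.66%) and 104 lower (13.2%). UTR probe sets were more often above background in at least 1 group, at 76.5% against 44.3%. Among those above background, 3.48% of UTR and 8.8% of CDS probe sets were higher, and 17.2% and 10.2% were lower. A comparison within an ID stem holds the transcript more nearly constant, if partners read the same one. There were 671 stems with both fields, which made 678 pairs of a CDS and a UTR probe set.

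Partners gave alike differences between posterior midgut and whole larvae. Across the 678 pairs the differences correlated at r = 0.841, a description over pairs read on the same 6 arrays. Both partners were higher in 15 pairs and both lower in 40, and in 0 pairs did limma call them in opposite directions. The CDS partner alone was called in 28 pairs, 13 of them higher, and the UTR partner alone in 46, of which 41 were lower. In those 41 pairs the median difference was -1.40 for the UTR and -0.56 for the CDS partner, and the CDS partner was below background in whole larvae in 10. In the 15 pairs with only the CDS partner lower, the medians were -1.39 for the CDS and -0.75 for the UTR partner. The larger drop of the called partner is fixed by how these pairs were chosen. Of the 83 pairs with a called CDS partner, the UTR partner differed in the same direction in 79.

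**Figure D4:**
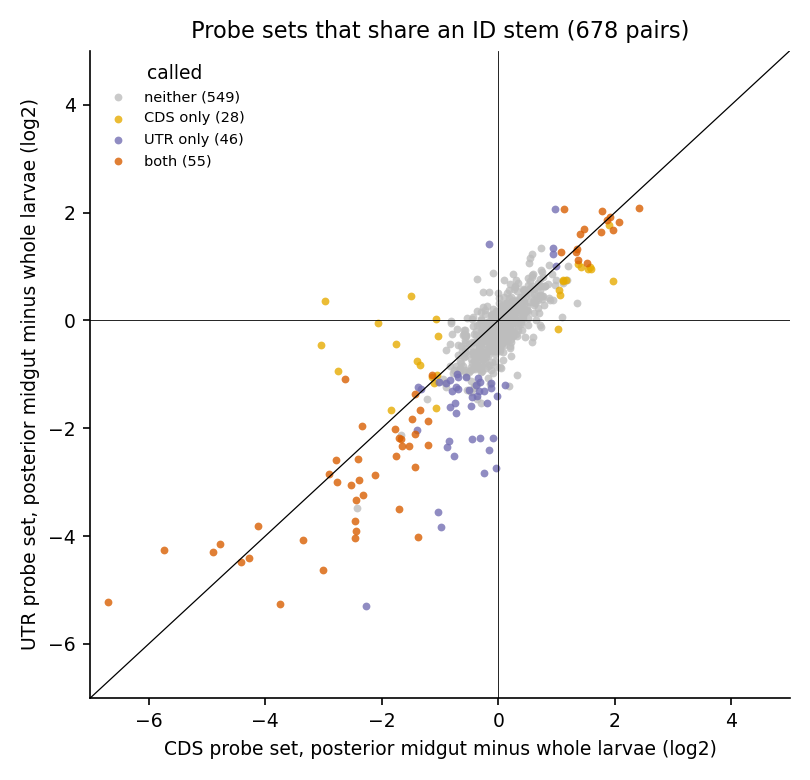
Difference between posterior midgut and whole larvae (log2) of the UTR probe set against that of the CDS probe set for 678 pairs that share an ID stem, with the line of equal differences. Points called in both partners (55) lie in the lower left and upper right quadrants, and the UTR-only points (46) lie mostly below the line.

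More widely, 986 ID numbers carried several versions, and 2 of them held both a higher and a lower probe set. A higher member was found in 75 of these ID numbers and a lower one in 124. Per probe set, 3.72% of all tested were higher and 5.17% lower. An ID number here holds several probe sets, so these shares do not compare directly. No expected count was worked out, so agreement between versions was not tested.

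Set against the other sections, the higher probe sets differed least from caeca. Their median level was 9.03 in posterior midgut, 8.57 in caeca, 8.19 in hindgut, 7.23 in anterior midgut and 7.03 in whole larvae. The anterior midgut medians here and below include its array 2, whose SD across probe sets was 1.40, against 1.59 and 1.70 on arrays 1 and 3. No median was taken without that array. The direct test of posterior midgut minus caeca called 96 of the 628 higher in posterior midgut and 11 lower, where 0.77% and 1.68% of all tested probe sets were called so. Against anterior midgut 269 were higher and 16 lower (2.74% and 0.492% of all), and against hindgut 253 were higher and 34 lower (2.45% and 7.54% of all). The posterior midgut arrays that placed these probe sets among the 628 also enter each of these tests, so part of any excess over all probe sets is set by the choice. With only anterior and posterior midgut arrays in the fit, and calls against whole larvae remade in the same way, 157 higher probe sets passed in place of 269, and 92 with the replicate number as a block in that fit. Without posterior midgut array 2 the 96 against caeca became 63 and the 269 against anterior midgut became 178. Over all tested probe sets, leaving out anterior midgut array 3 changed the calls against that section from 462 higher and 83 lower to 1025 and 279, and leaving out array 2 gave 365 and 125.

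The median difference of the 628 was 0.33 from caeca (quartiles -0.15 and 0.95), 0.81 from hindgut (0.14 and 1.63) and 1.12 from anterior midgut (0.28 and 2.17). Over all probe sets these medians were 0.02, 0.07 and -0.03. Posterior midgut had the highest mean of the 5 groups for 281 of the 628 (44.7%) and the second highest for 259 (41.2%). Over all tested probe sets these shares were 14% and 29.5%. Being above whole larvae was the condition of choice, so a high rank is partly set by it. Caeca led for 141, hindgut for 114 and anterior midgut for 92, and whole larvae had the lowest mean for 340. Of all 16884 tested, caeca led for 1539, hindgut for 4029 and anterior midgut for 5772, and whole larvae were lowest for 3021.

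By combinations of tests, 24 of the 628 were higher in posterior midgut than in every other section, out of 26 such probe sets among all tested. A further 116 passed against anterior midgut alone, 113 against hindgut alone and 70 against both of these but not caeca. Those above caeca alone numbered 7. For 182 no test against a section passed in either direction, which does not show equal levels. In 45 the tests went both ways, as in 15 probe sets above anterior midgut and below hindgut with no call against caeca. Of all 16884 tested probe sets, 14739 had no call against any section and 147 had calls both ways. Higher against exactly 1 section were 575 of all and 270 of the 628, and against exactly 2, 176 and 138. The choice on posterior midgut arrays sets part of these counts.

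The 873 lower probe sets had a median level of 5.27 in posterior midgut and 5.34 in anterior midgut, both below the background of the group, against 5.85 in caeca, 6.25 in hindgut and 7.56 in whole larvae. Against anterior midgut 8 were lower in posterior midgut (0.916%) and 6 higher (0.687%), where 0.492% and 2.74% of all tested were called so. Against caeca 147 were lower (16.8%, against 1.68% of all) and 0 higher by limma's adjusted p (0.77% of all). Against hindgut 359 were lower (41.1%, against 7.54% of all) and 4 higher (0.458%, against 2.45%). As with the higher ones, the posterior midgut arrays that chose these probe sets also enter each test. Without gastric caeca array 3 the 147 became 89, and without posterior midgut array 3 the 8 against anterior midgut became 4. The median difference was -0.10 from anterior midgut, -0.37 from caeca and -0.85 from hindgut.

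Posterior midgut had the lowest mean of the 5 groups for 410 of the 873 (47%) and the second lowest for 327 (37.5%). Over all tested probe sets these shares were 10.8% and 20.6%. Being below whole larvae was the condition of choice, and 547 of the 873 were not above background in posterior midgut, so many of these ranks order values near the floor. Whole larvae had the highest mean for 655, hindgut for 170 and caeca for 46. Of all 16884 tested, these groups were highest for 3178, 4029 and 1539. No test against a section passed for 436, while 284 were lower than hindgut alone, 65 lower than caeca alone and 71 lower than both but not anterior midgut. Of all 16884 tested, 14739 passed no such test. Lower than exactly 1 section were 1394 of all and 354 of the 873, and lower than exactly 2 were 118 and 77.

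**Figure D5:**
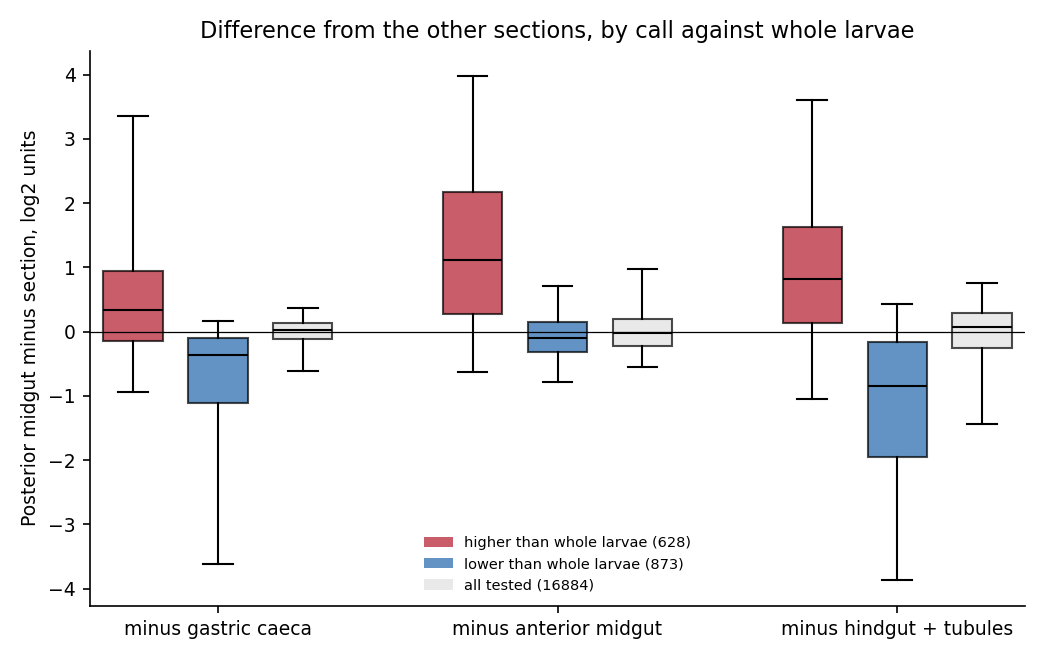
Log2 difference between posterior midgut and each other section for the 628 probe sets higher than whole larvae, the 873 lower ones and all 16884 tested (boxes are quartiles with the median, whiskers reach the 5th and 95th percentiles). Lower probe sets centre near 0 against anterior midgut, with a median of -0.10, and well below 0 against hindgut, with a median of -0.85.

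Single arrays did not weigh equally in the calls. Among the 628 higher probe sets, median levels were 9.04, 9.30 and 8.87 on posterior midgut arrays 1 to 3, and 6.60, 7.29 and 7.18 on whole-larva arrays 1 to 3. Posterior midgut array 2 was the highest of its group for 61% of them, against 30% of all tested probe sets, and whole-larva array 1 was the lowest of its group for 65.4%, against 31.5%. Without posterior midgut array 2 the higher count was 459, and 458 of these were among the 628. Without whole-larva array 1 it was 517, of which 497 were among the 628.

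The lower probe sets had median levels of 5.24, 5.25 and 5.27 on the posterior midgut arrays, all below background, and 7.68, 7.69 and 7.36 on the whole-larva arrays. In whole larvae 203 of the 873 lower (23.3%) and 47 of the 628 higher probe sets (7.48%) had an SD above 1 log2 unit, where 3.37% of all tested did. Posterior midgut and whole-larva arrays did not overlap for 622 of the 628 higher and for 853 of those 873, where 16.6% of all tested probe sets had no overlap upwards and 12.8% downwards. The calls were made on these same arrays, so these 2 counts follow largely from the choice.

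Of the 628 higher probe sets, 399 (63.5%) were called in the same direction under each of 10 other fits, and 528 (60.5%) of the 873 lower ones were. Those fits left out 1 of the 6 arrays in turn, used only both groups, added the replicate number as a block, quantile normalized the values again or centred each array on its median.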

How the data were processed

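Labelled RNA of 15 Affymetrix arrays was measured, 3 for each of 4 gut sections and whole larvae, grouped by sample title. The deposited values are on a log2 scale, judged from their range, and the authors computed them with RMA according to the submitters' processing notes. RMA subtracts background, makes arrays comparable and combines the probes of each set. Its version and settings, and the array scans, are not used here. Arrays give no counting depth, and the number of arrays limits precision.

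From these values, limma 3.58.1 under R 4.3.3 was fitted (lmFit, eBayes, a mean per group, 16884 probe sets, 15 arrays, 1 spread per probe set for all groups). Contrasts were posterior midgut minus whole larvae and minus each other section, with Benjamini-Hochberg adjustment within a contrast. A call needs an adjusted p under 0.05 and 2-fold. Named probe sets follow the rule given with them, 2 in each direction, since IDs are not paired with genes and gene lists could not be used. The fit was run on simulated arrays with known changes, normal noise and 1 spread per probe set for all groups. The measured spread differed between groups, so that run checks the code and not the error rate on these data. The comparison, its probe sets and the tests were chosen with earlier results of these data known.

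Same-numbered arrays of posterior midgut and whole larvae deviated together from their group means, with r = 0.172, 0.188 and 0.257 across probe sets, and every other pairing gave 0.052 or less. The level of the bioC minus that of the cre control probe sets was -4.31, -3.85 and -2.82 on posterior midgut arrays 1 to 3. It was -4.65, -3.86 and -3.01 on whole-larva arrays 1 to 3, and -3.34, -3.37 and -3.21 in hindgut. Whether the number marks shared larvae or shared array processing was not tested. By the r values, the numbers were taken to pair the arrays, but the main fit does not use this pairing. Its counts, SE and adjusted p are those of unpaired groups. The pairing enters only the alternatives with a replicate block. With only both groups in the fit, that block gave 575 higher and 618 lower calls. Alternatives were other fits, tests, scalings, backgrounds and probe set filters, and leaving out each array.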

Additional observations from a re-analysis of the deposited data

Results flagged for a closer look

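The effect against whole larvae differed between sections for the named probe sets, by limma's direct test of posterior midgut minus a section (adjusted p under 0.05 and 2-fold). Ag.2L.468.1_CDS_a_at was above caeca by 1.13 log2 units. Its fitted difference from anterior midgut was 3.30, but the level there was below background, which leaves a bound of at least 8.63-fold. For Ag.3R.2594.0_CDS_at the fitted differences were 3.68 from caeca and 3.28 from anterior midgut, both below background, with bounds of at least 8.59-fold and 6.20-fold. Ag.UNKN.848.0_CDS_s_at differed by -1.01 from caeca and -1.05 from hindgut. Ag.2R.288.0_CDS_a_at differed by -4.02 from hindgut. All 4 were selected for their change against whole larvae on the same posterior midgut arrays.

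Probe sets whose ID starts with a sequence accession were in no comparison above. In a limma fit of all IDs on the array, 5 of these 937 were higher in posterior midgut than in whole larvae and 7 were lower, 1.28% in all against 8.17% of Ag probe sets, from -3.62 to 2.67 log2 units over all 937. In the same fit 0 of 4506 Pf probe sets, 0 of 290 with numbers as IDs and 0 of 144 control probe sets were called, with 141, 56 and 18 at an unadjusted p under 0.05. RefSeq matched none of the accession IDs, so they are not named.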

How the results depend on the processing

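Over 44 results, 332 of 366 values under alternative settings kept their direction and call or, for counts, stayed within 1.5 times, and 34 moved further. None reversed, and against whole larvae 0 probe sets were called in the opposite direction by an alternative. Counts cannot reverse. Alternatives that kept the values and all arrays of both compared groups, without weights, left each log2 difference unchanged. An opposite call was not possible in those. The 628 higher and 873 lower calls became 71 and 178 in the methods' t-test after Benjamini-Hochberg adjustment, 3 and 12 with a spread per group after that adjustment, and 114 and 355 in a test against 2-fold. Leaving out an array of any group gave 459 to 687 higher and 736 to 1061 lower calls, 153 to 253 and 423 to 521 at 4-fold, and 9 to 35 and 186 to 219 at 10-fold, where arrays of both compared groups were left out. The replicate block gave 631 and 881, of which 610 and 854 were shared, and changed no call of a named probe set. With the Pf background per group, or 1 level over all arrays, higher calls above background in posterior midgut only were 0 and 1, lower calls above it in both groups 843 and 849, and in whole larvae only 30 and 24.

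Leaving out an array of posterior midgut or, chosen after seeing the data, of the other section gave 93 to 124 higher and 193 to 274 lower calls against caeca (63 to 88 and 89 to 141 of those called alike against whole larvae), 328 to 1025 and 62 to 279 against anterior midgut (178 to 347 and 4 to 12), and 320 to 403 and 1053 to 1315 against hindgut (185 to 240 and 276 to 342). A fit of only both sections gave 269 higher and 53 lower against anterior midgut, 157 of the former also higher than whole larvae. With a replicate block added to such fits, chosen after seeing the data, there were 133 and 21 (92 and 5 also called alike against whole larvae), and 202 and 484 against caeca. Quantile normalization gave 165 lower against anterior midgut, 16 of them lower than whole larvae. Lower calls without CDS or UTR in the ID were 137, and 74 in the fit of only both groups. The named probe sets kept their calls, at 2.33 to 2.59, 2.63 to 2.92, -5.55 to -5.39 and -4.59 to -4.23 without 1 array. Array weights by REML did not converge, and the gene-by-gene method, added later, gave 651 and 923. The causes were not tested.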
